A study of Equus caballus with 6 samples.

Results

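Single-read sequences are the sequences of the deposited piRNA table that were read exactly once when the 6 libraries of this series are added together. They numbered 3798843 of the 4936717 distinct sequences in the table, which is 77.0% of the sequences and 21.2% of the 17914237 reads. The members were chosen by their counts alone, so their numbers below are descriptions without a test, and the sequence features were not used to choose them. The libraries came from testes of the Mongolian horse, 3 labelled immature testis and 3 labelled mature testis, with no treatment and no genotype named. The age of the animals and the germ cell stages present are not given in the labels, and nothing there says that the libraries of a group came from separate animals. The p-values thus reflect only how much these libraries vary, which may be technical. Whole testis holds germ cells and somatic cells, so more cells of a type and more RNA per cell cannot be told apart in these bulk libraries. Testis identity could not be checked against marker genes, because the table holds only sequences of 25 to 32 nt.

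piRNAs are small RNAs that bind PIWI proteins in germ cells and guide them to transposon and other transcripts. Their 5′ end is usually a uridine, written T in the sequences below, and it is set when a precursor is cut. Their 3′ end is made later, by an exonuclease that trims the bound RNA up to the edge of the PIWI protein, so that copies with the same start often differ at the end. In the ping-pong cycle a piRNA directs the cut of an opposite-strand transcript, and that cut becomes the start of a partner. This leaves adenine at position 10 of partners that lack the uridine. In mammals, different PIWI proteins, present at different stages of germ cell development, carry piRNAs of different typical lengths.

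The sequences below show what a single-read sequence can look like. They were chosen by rule: the first-20-nt groups (all sequences with the same first 20 nt) that held the most members, the sequence with the most reads in each, and the member with the lowest identifier number of each kind. The largest group had 313 members, 262 from immature and 51 from mature testis, beside 385 sequences with more reads. Capitals mark the bases after position 20, where the copies differ. The first line is the most-read sequence of the group, and the next 4 are members read once.
uniq_2330440: tgaagtagaacttctgctctGCCGTGT
uniq_2382938: tgaagtagaacttctgctctGGTTGG
uniq_2330116: tgaagtagaacttctgctctGCCTTGTG
uniq_2360655: tgaagtagaacttctgctctGCCGAGTC
uniq_2362845: tgaagtagaacttctgctctGACGGGTCC

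The most-read sequence, uniq_2330440, had 638, 750 and 492 reads in immature replicates 1, 2 and 3 and 86, 96 and 132 reads in mature replicates 1, 2 and 3. uniq_2382938 is a member of 26 nt from immature replicate 1 that is the beginning of a longer sequence with more reads, here called shortened. uniq_2330116, of 28 nt from mature replicate 1, begins with the whole of a shorter sequence with more reads, here called extended. uniq_2360655, from immature replicate 1, is both, and uniq_2362845, of 29 nt from immature replicate 1, is neither. Of the 313 members of this group 217 were extended only, 7 shortened only, 10 both and 79 neither. The capitals show that the copies differ in the order of bases after position 20 and not in length alone: uniq_2330116 equals the most-read sequence over its first 23 bases only.

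The next groups in size are shown by their most-read sequence and an extended member, again with the bases after position 20 in capitals. The first pair is from a group of 174 members, 167 of them from immature testis, and the second pair from a group of 171 members, with 94 from immature and 77 from mature testis.
uniq_2336871: tgaagtaggacttctgctctGGGTGTG
uniq_2342182: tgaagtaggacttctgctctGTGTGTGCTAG
uniq_11876: ttctgtctcatgtgaatttaATTCGTT
uniq_49669: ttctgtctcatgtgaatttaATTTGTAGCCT

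The shared start of the second group differs from that of the first by 1 base, A9G (the base of the first group, its position from the 5′ end, and the base of the second group). uniq_2336871 had 397, 459 and 294 reads in the immature replicates and 2, 11 and 3 in the mature replicates. uniq_11876 had 429, 419 and 141 reads in the immature and 86, 136 and 70 in the mature replicates. Such large groups were rare. The members fell into 2683358 groups by their first 20 nt, of which 2159334 held 1 member and 10710 held 10 or more.

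Most members had no near copy. The lines below give, for immature and then mature testis, the member with the lowest identifier number among those with no near copy and of their most frequent length, 27 nt in both groups. A near copy is a sequence with at least 2 reads that has the same first 20 nt, or the same length and all bases but 1. Capitals mark positions 1 and 10. Both start with T and neither has A at position 10.
uniq_389: TctttgactGatggctgctggtcatcc
uniq_32: TctgtggtgCtatgactcttatttaac

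Libraries and depth set the frame for every value that follows. The immature libraries held 1382083 to 2347351 reads in the table and the mature libraries 4032042 to 4550970. These are reads of called piRNAs and not sequencing depth, and a count of 0 leaves room for 3 reads, or 0.659 to 2.17 CPM. A member is therefore a sequence not detected in the other 5 libraries at this depth, not a sequence absent from them. The 95% Wilson intervals of the tested shares of members reached at most 0.301 percentage points to either side and cover counting error only. Immature replicate 1 stood apart from the other immature libraries in its near copies. Among its members at 1 substitution from a sequence with more reads, 10.3% differed at position 4, against 1.57% and 1.56% in immature replicates 2 and 3 and 1.80% to 1.93% in the mature libraries. Differences at position 1 made up 3.92% there, 1.48% and 1.47% in immature replicates 2 and 3, and 7.51%, 7.10% and 8.09% in mature replicates 1, 2 and 3. Some of the results that these positions touch are therefore also given without them or without that library.

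The single-read sequences came from all libraries. They numbered 588697, 878762 and 638503 in immature replicates 1, 2 and 3, and 575037, 559321 and 558523 in mature replicates 1, 2 and 3. Immature testis thus held 2105962 of the members and mature testis 1692881, although its libraries had fewer reads. Of the distinct sequences of a library, members made up 69.8%, 68.3% and 67.8% in the immature and 50.4%, 49.6% and 48.9% in the mature libraries. The groups did not overlap. Of the reads, members made up 41.2% ± 3.33 (SD, n = 3) in immature and 13.3% ± 0.929 in mature testis. With every library thinned to 1382083 reads, 560619 to 642622 sequences were read once in the immature libraries and 239380 to 262940 in the mature libraries. These made up 68.9% to 73.5% and 49.9% to 52.0% of the distinct sequences, so the order of the groups held at equal numbers of reads.

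Every length and first base had its part in this. In immature testis the single-read share of distinct sequences was highest at 25 nt, with 73.0% ± 1.01, and lowest at 31 nt, with 60.1% ± 5.35. In mature testis it was highest at 26 nt, with 53.9% ± 0.445, and lowest at 30 nt, with 46.0% ± 1.35. Sequences that began with uridine were the least often single-read, at 67.3% ± 1.05 in immature and 48.0% ± 0.838 in mature testis. The other first bases ran from 75.7% to 76.2% and from 57.9% to 60.6%.

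Members from mature testis were longer than members from immature testis. Lengths of 29 to 32 nt made up 25.3%, 23.0% and 24.7% of members in immature replicates 1, 2 and 3, and 55.9%, 55.3% and 53.0% in mature replicates 1, 2 and 3. No mature library was as low as the highest immature one, with group means of 24.3% ± 1.23 and 54.7% ± 1.53 (SD, n = 3, exact permutation p = 0.1, two-sided). With 3 libraries against 3 this p is the smallest the test can give, and after Benjamini-Hochberg adjustment over the 8 comparisons of mature with immature members it was 0.114. Averaged over members, the length came to 27.5, 27.3 and 27.4 nt in immature replicates 1, 2 and 3 and to 28.6, 28.6 and 28.5 nt in mature replicates 1, 2 and 3, a difference of 1.15 nt (exact permutation p = 0.1, adjusted 0.114).

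By single lengths, the members of immature testis peaked at 26 and 27 nt and those of mature testis had no single peak. In immature testis 27 nt held 30.3% ± 0.368 and 26 nt 25.3% ± 1.49 of members. In mature testis these lengths held 17.7% ± 0.569 and 14.1% ± 0.732, while 29 nt held 20.1% ± 1.71, 30 nt 16.3% ± 0.711 and 31 nt 15.1% ± 1.46. In immature testis 29, 30 and 31 nt held 13.2% ± 1.00, 6.06% ± 0.282 and 4.21% ± 0.167. At 28 nt, between the short and the long class, the shares were 13.1% ± 0.877 and 9.96% ± 0.231. At every length from 25 to 32 nt the groups did not overlap. This was not particular to members, since sequences with at least 2 reads in the series did not overlap at any of these lengths either. Of those sequences, 27 nt held 27.9% ± 1.44 in immature and 15.2% ± 0.262 in mature testis. The shares at 30 nt were 8.80% ± 0.975 and 18.8% ± 0.358.

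Within each library, members were shorter than all sequences with more reads counted as 1 class. The comparison is with sequences of at least 2 reads in the series and at least 1 in the same library, each counted once. In immature testis 31.4% ± 2.53 of these had 29 to 32 nt, and in mature testis 60.4% ± 0.671. Members lay below them in 6 of 6 libraries, with differences of -3.32, -10.7 and -7.09 percentage points in the immature and -5.16, -5.12 and -6.72 in the mature replicates. The mean difference was -6.35 percentage points ± 2.52 (SD, n = 6, exact sign-flip permutation p = 0.031, two-sided). This is the smallest p that 6 libraries allow, and it stayed at 0.031 after adjustment over the 4 comparisons of members with sequences of more reads. The classes of reads below count reads over all 6 libraries. An immature class can thus hold sequences with most of their reads in mature libraries. Of 16328 sequences with more than 100 reads, each mature library held 16025 to 16085 and each immature library 9064 to 15331. By class of reads the mean share of 29 to 32 nt rose. In immature testis it was 24.8% ± 0.210 with 2 reads in all and 26.7% ± 1.30 with 3 to 5. With 11 to 100 it was 43.5% ± 6.80, and with more than 100 reads 70.3% ± 1.84. The same classes in mature testis had 57.95% ± 1.23, 59.2% ± 0.792, 63.6% ± 0.275 and 73.3% ± 0.193. Members of immature replicate 1, at 25.3%, lay above its sequences with 2 reads, at 24.9%. Immature replicates 2 and 3 went the other way.

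Uridine at position 1, the mark of primary piRNAs, showed no difference between immature and mature members beyond the spread of the libraries. It was found in 81.3%, 82.8% and 82.8% of members in immature replicates 1, 2 and 3, and in 82.6%, 82.6% and 81.6% in mature replicates 1, 2 and 3. The groups overlapped, with means of 82.3% ± 0.869 and 82.3% ± 0.547 (SD, n = 3, exact permutation p = 1, adjusted 1). With 3 libraries a group the test does not show that the shares are equal. Without immature replicate 1 the difference was -0.505 percentage points. At positions 2 to 25 except 10, uridine made up 27.2% ± 0.276 and 27.1% ± 0.175 of bases on average, so position 1 stood far above the composition of the same sequences in every library.

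The other first bases had the same order in each library. Cytidine was next in frequency, at 7.94% ± 0.229 in immature and 7.87% ± 0.245 in mature members. Adenosine was found in 6.15% ± 0.124 and 5.12% ± 0.166, and guanosine in 3.63% ± 0.524 and 4.74% ± 0.144. Guanosine at position 1 moved with the near copies that differ at that position. Of members that began with guanosine, 5.36% in immature replicate 1, 0.6998% and 0.572% in replicates 2 and 3, and 21.8%, 22.5% and 24.8% in the mature replicates had as their most-read neighbour a sequence that differed at position 1 only. The part of these neighbours in the guanosine shares was not tested. With members at 1 substitution at position 1 or 4 left out, an alternative chosen after the data were seen, uridine stood at position 1 in 82.4% of immature and 83.9% of mature members (exact permutation p = 0.1).

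By length, uridine was most frequent among the shortest members. At 25 nt it began 87.6% ± 0.473 of immature and 85.9% ± 0.369 of mature members. At 27 nt the shares were 80.7% ± 0.825 and 79.5% ± 0.479, the lowest of all lengths for mature members. Members of 31 nt had 80.3% ± 1.49 and 82.6% ± 0.793, and members of 32 nt 81.5% ± 1.35 and 84.9% ± 0.857. Immature members thus lay above mature members at 25 and 26 nt and below them at 31 and 32 nt with no overlap, and between 27 and 30 nt the libraries overlapped.

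Uridine at position 1 was less frequent among members than among sequences with more reads. The latter began with uridine in 87.7% ± 0.832 in immature and 87.8% ± 0.175 in mature testis. Members lay lower in 6 of 6 libraries, with differences of -5.46, -5.45 and -5.34 percentage points in the immature and -5.27, -5.29 and -5.93 in the mature replicates (mean -5.46 ± 0.244, SD, n = 6, exact sign-flip permutation p = 0.031, adjusted 0.031). Without members at 1 substitution at position 1 or 4 the mean difference was -4.58 percentage points. Counting each distinct first 20 nt once, it was -3.26 percentage points, over 1.5 times smaller than with each sequence counted.

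The share with uridine was higher in each class of more reads. Among sequences with 2 reads in all it was 86.0% ± 0.763 in immature and 85.2% ± 0.357 in mature testis, with 3 to 5 reads 87.4% ± 0.611 and 86.9% ± 0.201, and with 11 to 100 reads 89.8% ± 1.28 and 90.8% ± 0.0572. Sequences with more than 100 reads, of which there were 16328, began with uridine in 92.6% ± 0.864 and 93.1% ± 0.0155. Each mature library held 16025 to 16085 of the latter and each immature library 9064 to 15331, so the groups share many sequences at the upper end. These classes were made by read count and are given as a description.

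Adenine at position 10 was more frequent among immature than among mature members. Over all members it stood at position 10 in 30.4%, 32.3% and 31.96% in immature replicates 1, 2 and 3, and in 29.1%, 29.4% and 28.7% in mature replicates 1, 2 and 3. Every immature library lay above every mature library (31.6% ± 1.04 and 29.1% ± 0.324, SD, n = 3, exact permutation p = 0.1, adjusted 0.114). At positions 2 to 25 except 10, adenine made up 24.7% ± 0.491 and 25.1% ± 0.136 of bases on average.

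Members that lack uridine at position 1, where adenine at position 10 is the mark of ping-pong partners, were also taken alone. Among them adenine stood at position 10 in 40.1%, 45.3% and 43.1% in the immature and in 35.0%, 35.7% and 34.4% in the mature replicates. The groups did not overlap (42.8% ± 2.63 and 35.0% ± 0.621, SD, n = 3, exact permutation p = 0.1, adjusted 0.114). Members that began with uridine had adenine there in 29.1% ± 0.861 and 27.8% ± 0.308, again with no overlap. As shares of all members, those with adenine at position 10 and no uridine at position 1 differed by -1.37 percentage points (mature minus immature), with no overlap. Those with both marks differed by -1.12, and here the libraries overlapped. Immature replicate 1 had 22.9%, below 23.0% and 23.2% in mature replicates 1 and 2. Both classes thus held part of the difference in means, but only the former separated the groups.

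Position 10 was the position richest in adenine in immature members without uridine at position 1, and not in the mature ones. In both groups position 2 was rich in adenine as well, with 37.2% ± 0.742 in immature and 39.7% ± 0.647 in mature members without uridine at position 1. In mature testis this lay above position 10 in every library. The neighbours of position 10 were low: position 9 had 20.5% ± 0.519 and 21.7% ± 0.188, and position 11 had 22.7% ± 0.618 and 22.8% ± 0.144. Position 10 thus stood above positions 9 and 11 in each of the 6 libraries.

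By length, the difference between the groups in this mark was widest in the middle of the range. Of members without uridine at position 1, those of 29 nt had adenine at position 10 in 46.6% ± 2.09 of the immature and 36.4% ± 0.845 of the mature ones. For 25 nt the shares were 38.5% ± 2.53 and 30.2% ± 1.43. At 32 nt they were 38.4% ± 0.980 and 36.7% ± 0.731, where the libraries of the groups overlapped, while at each length from 25 to 31 nt they did not. Among sequences with more reads the groups did not overlap at any length from 25 to 32 nt. Their differences (mature minus immature) were -14.7 percentage points at 25 nt and -12.8 at 29 nt, wider than those of members. At 31 and 32 nt they were 4.26 and 12.7, in the other direction.

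Members carried adenine at position 10 less often than all sequences with more reads counted as 1 class. Over all first bases the difference was small, with a mean of -0.861 percentage points ± 1.03 (SD, n = 6, lower in 6 of 6 libraries, exact sign-flip permutation p = 0.031, adjusted 0.031). The mean was -1.52 percentage points in immature testis but only -0.199 in mature testis, with -0.165, -0.0833 and -0.349 in the mature replicates. Immature replicate 1 had -2.78 percentage points, the largest of the 6 differences, and the mean without that library was -0.477. Without members that have a near copy the mean of the 6 libraries was -1.56. Among sequences without uridine at position 1, those with more reads had adenine at position 10 in 50.8% ± 0.511 in immature and 38.9% ± 0.578 in mature testis. Members lay below them in 6 of 6 libraries, with differences of -10.2, -5.55 and -8.22 percentage points in the immature and -3.89, -3.83 and -3.91 in the mature replicates (mean -5.94 ± 2.71, SD, n = 6, exact sign-flip permutation p = 0.031, adjusted 0.031). The classes of reads again count reads over all 6 libraries, and the groups share many sequences above 100 reads. By class of reads the share did not move in one direction. In immature testis, without uridine at position 1, it was 52.2% ± 1.43 with 2 reads in all, 53.8% ± 0.643 with 3 to 5, 44.2% ± 0.360 with 11 to 100 and 35.8% ± 1.14 with more than 100 reads, so the last class lay below the members. In mature testis the same classes had 37.8% ± 0.682, 38.6% ± 0.713, 41.4% ± 0.132 and 37.6% ± 0.141, each above the members. Over all first bases, sequences with more than 100 reads had adenine at position 10 in 28.9% ± 0.130 and 28.95% ± 0.0270. Whether the gap between members and sequences with more reads differs between the groups was not tested.

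The first 20 nt linked members to sequences with more reads more often in mature testis. A member was counted when its first 20 nt were those of a sequence with at least 2 reads in the series. This held for 16.1%, 20.1% and 19.01% of members in immature replicates 1, 2 and 3, and for 34.3%, 37.3% and 36.8% in mature replicates 1, 2 and 3. The groups did not overlap, with means of 18.4% ± 2.04 and 36.1% ± 1.62 (SD, n = 3, exact permutation p = 0.1, adjusted 0.114). Over all libraries 1003893 members, or 26.4%, had such a partner.

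The larger number of mature reads gives more sequences with at least 2 reads, so the comparison was repeated at equal reads. With every library thinned to 1382083 reads and members and partners found again, the shares were 17.4% and 35.2%. With partners of at least 10 reads they were 4.13% and 14.97%, and the difference fell from 17.7 to 10.8 percentage points. Mature members had partners more often at each length, from 18.4% ± 2.19 against 40.7% ± 2.14 at 25 nt to 35.7% ± 3.55 against 52.7% ± 2.07 at 32 nt. Lengths of 26 and 27 nt, the main lengths of immature testis, had the lowest shares in both groups, with 15.1% ± 1.88 and 15.5% ± 1.88 in immature and 32.5% ± 1.55 and 32.4% ± 1.66 in mature testis.

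Most partners were read in the library that held the member. A partner in the same library was found for 11.8%, 15.9% and 13.5% of members in the immature and for 28.7%, 31.02% and 31.4% in the mature replicates (13.7% ± 2.03 and 30.4% ± 1.46, SD, n = 3, exact permutation p = 0.1, adjusted 0.114). This difference of 16.6 percentage points was 10.95 with partners of at least 10 reads and 11.1 with each distinct start counted once. A further 3.51% ± 0.682 and 4.56% ± 0.378 had their partners only in other libraries of the same group. Partners read only in the other group were found for 1.15% ± 0.357 of immature and 1.19% ± 0.112 of mature members, and here the libraries overlapped. These shares count partners of at least 2 reads only.

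Members with uridine first had a partner more often, as did, among the other members, those with adenine at position 10. Members that began with uridine had a partner in 19.6% ± 2.12 in immature and 38.3% ± 1.76 in mature testis, and members with another first base in 12.7% ± 1.33 and 25.8% ± 1.11. Without uridine at position 1, members with adenine at position 10 had a partner in 16.7% ± 1.20 and 29.1% ± 1.32, and those with neither mark in 9.70% ± 1.12 and 24.0% ± 1.09. The order of these classes was the same in both groups, and members with neither mark stood lowest in each.

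Starts were shared more often than ends. The last 20 nt of a member equalled those of a sequence with at least 2 reads in 7.34%, 5.76% and 5.52% in the immature and in 14.6%, 15.3% and 16.8% in the mature replicates. Shared starts exceeded shared ends in 6 of 6 libraries, by 16.4 percentage points ± 5.03 on average (SD, n = 6, exact sign-flip permutation p = 0.031, a comparison added after the data were seen and outside both families of tests). The excess was 12.2 percentage points in immature and 20.6 in mature testis. With partners of at least 10 reads the average excess was 4.75 percentage points.

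Among members with a common start, those here called extended outnumbered those called shortened. Any shorter sequence with more reads suffices, so an extended member can still differ from the most-read sequence, as uniq_2330116 does above. The kinds thus do not give the balance of length against the most-read sequence, which follows below. Extended members, which begin with the whole of a shorter sequence with more reads, made up 43.9% ± 1.31 of them in immature and 49.3% ± 1.43 in mature testis. Shortened members made up 18.6% ± 1.52 and 19.01% ± 1.63, and members that were both 3.70% ± 0.487 and 4.59% ± 0.285. Neither kind, with other bases after position 20 as in uniq_2362845 above, made up 41.2% ± 2.36 and 36.3% ± 0.303. Of this last class 54.9% ± 1.23 and 60.6% ± 0.180 were at 1 substitution from a sequence of their own length with more reads. Because the table ends at 25 and 32 nt, copies beyond these lengths cannot be seen, and the kinds were not tested between groups.

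Set against the most-read sequence with the same start, members differed in length in both directions. In immature testis 41.5% ± 2.52 were longer, 36.6% ± 1.41 shorter and 21.9% ± 1.11 of equal length. In mature testis 36.1% ± 2.02 were longer, 41.8% ± 2.10 shorter and 22.1% ± 0.661 of equal length. On average immature members differed by 0.121 nt ± 0.1002 and mature members by -0.222 nt ± 0.101 (member minus partner). The immature libraries had 0.233, 0.0408 and 0.0886 nt, and without immature replicate 1 the immature mean was 0.0647 nt. The sign was the same in the 3 libraries of a group, so the balance lay on the longer side in one group and on the shorter side in the other. Here too, copies beyond 25 and 32 nt cannot be seen. Lengths of 26 and 27 nt held 55.6% ± 1.46 of immature members, and 29 to 32 nt held 54.7% ± 1.53 of mature members. The most-read sequence was chosen by reads over all 6 libraries. The part of these limits in the sign was not tested. The partners themselves were modest. Their median total was 3, 4 and 4 reads in the immature and 6, 7 and 7 reads in the mature replicates, and a total of at least 100 reads was reached by 3.14% ± 0.387 and 11.1% ± 0.513 of them.

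The base added to an extended member was most often uridine or adenine. Among members that add exactly 1 base to a sequence with more reads and are not also shortened, uridine was added in 30.6% ± 1.31 in immature and 28.3% ± 2.09 in mature testis. Adenine was added in 28.6% ± 0.924 and 27.9% ± 1.11, cytosine in 22.0% ± 1.70 and 22.9% ± 0.269, and guanine in 18.8% ± 1.54 and 21.0% ± 1.95. Members with no near copy ended in uridine in 36.0% ± 2.65 and 36.5% ± 1.09, in cytosine in 29.5% ± 3.33 and 29.03% ± 0.564, and in adenine in 20.2% ± 0.688 and 20.4% ± 0.917. They ended in guanine in 14.3% ± 0.197 and 14.1% ± 0.766. Adenine and guanine were thus both more frequent as added bases than as final bases of members without near copies, and uridine and cytosine less frequent, in each group. Without a genome, an added base that follows the genome and one that does not cannot be told apart here.

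Substitutions gave the other large class of near copies. A sequence of the same length with at least 2 reads and all bases but 1 in common was found for 10.8%, 12.01% and 11.1% of members in immature replicates 1, 2 and 3, and for 28.3%, 30.3% and 31.2% in mature replicates 1, 2 and 3. The groups did not overlap, with means of 11.3% ± 0.624 and 29.9% ± 1.52 (SD, n = 3, exact permutation p = 0.1, adjusted 0.114). At equal reads the shares were 10.5% and 27.3%. Counting as neighbours only sequences with at least 10 reads, they were 3.50% and 16.4%. Limited to differences from position 5 to the fourth base from the end, which leaves out positions 1 and 4, they were 4.42%, 4.36% and 4.22% in the immature and 11.4%, 11.9% and 13.03% in the mature replicates. Position 5 stays within this range, and there immature replicate 1 was also higher, with 2.63% of its single-substitution copies against 1.78% and 1.72% in immature replicates 2 and 3. The median total of the most-read neighbour was 5 reads in each immature library and 12, 12 and 13 reads in the mature ones.

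The last base was the place where single-substitution copies differed most. It held the difference in 33.5%, 46.5% and 45.2% of such copies in the immature and in 34.8%, 36.0% and 32.9% in the mature replicates. The base before it held 6.41% ± 1.31 and 7.99% ± 0.308, and each position from 5 to the fourth from the end held 1.88% ± 0.113 and 1.86% ± 0.0631 on average. Position 10 held 2.01% ± 0.151 and 1.85% ± 0.0649, close to that average. The first base held 2.29% ± 1.41 and 7.57% ± 0.499, with the values by library given above.

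Among substitutions from position 5 to the fourth base from the end, transitions (A with G, C with U) prevailed. Going from the sequence with more reads to the member, A-to-G made up 23.4% ± 0.226 of them in immature and 24.8% ± 1.29 in mature testis. U-to-C followed at 20.02% ± 0.607 and 22.4% ± 0.924. G-to-A was at 10.9% ± 0.409 and 8.44% ± 0.267, and C-to-U at 9.88% ± 0.200 and 8.47% ± 0.231. All 4 transitions together came to 64.2% ± 0.796 and 64.1% ± 2.68. Mature replicate 3 stood apart in G-to-U, at 4.80% against 8.07% and 8.94% in mature replicates 1 and 2. Copies of another repeat locus, RNA editing and read errors were not told apart, and the part of each was not tested.

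The most-read sequence of the whole table, uniq_2076883, had few single-read copies. It has 31 nt and 282067 reads. Of the 93 possible substitutions of 1 base, 77 were in the table and 0 of these were members, since all had more reads. Its first 20 nt were shared by 131 sequences with more reads and by 10 members, 8 from immature and 2 from mature testis.

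Members with no near copy were the larger part in both groups. They made up 79.2%, 76.5% and 77.7% of members in immature replicates 1, 2 and 3 and 55.1%, 51.99% and 51.1% in mature replicates 1, 2 and 3, as in uniq_389 and uniq_32 above. Allowing any shared run of 20 nt, at any offset, in place of shared starts left 64.1% ± 1.07 of immature and 36.1% ± 2.32 of mature members without a relative. Members whose first 20 nt occurred in no other sequence of the table made up 62.1% ± 2.69 and 44.3% ± 1.42. A start shared only with other members was found for 19.5% ± 0.650 and 19.6% ± 0.208, where the groups overlapped.

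Members without a near copy also began mostly with uridine. They began with uridine in 80.1%, 81.2% and 81.4% in the immature and in 80.2%, 79.6% and 78.5% in the mature replicates. Lengths of 29 to 32 nt made up 22.5% of them in immature and 51.6% in mature testis. Adenine stood at position 10 of those without uridine at position 1 in 40.5% and 33.5%. Both differences between the groups had the direction found for all members (exact permutation p = 0.1 for each).

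Sequences just outside the rule, with 2 reads in all, numbered 491199. Both reads lay in 1 library for 36.4% of them, in 2 libraries of the same group for 49.3% and in 1 library of each group for 14.3%. In length they were close to the members, with 29 to 32 nt in 24.8% ± 0.210 of those from immature and in 57.95% ± 1.23 of those from mature libraries. Adenine at position 10 without uridine at position 1 was found in 52.2% ± 1.43 and 37.8% ± 0.682. A start shared with a sequence of at least 3 reads was found for 37.8% ± 2.96 and 55.5% ± 1.41 of them, and for 12.3% ± 1.60 and 28.5% ± 1.58 of members. The step from 1 read to 2 thus changed the share with a common start more than it changed the length.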

How the data were processed

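Small RNA was sequenced in 3 libraries of immature and 3 of mature testis of the Mongolian horse, from 3 µg of total RNA a library and gel bands of 140 to 160 bp, per the labels' protocols. The table the authors deposited holds raw read counts, a row for each distinct sequence and a column for each library, per the file headers. Bowtie is named without a version, per the submitters' processing notes. As to the genome build, the depth before piRNA calling and the calling step, these were not given in the sources used here. All 6 columns were used, and 0 rows lacked a sequence.

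Sequences were encoded and compared exactly with Python 3.11.15, numpy 2.4.6, pandas 2.3.3 and scipy 1.17.1, and the comparisons were checked on simulated sequences with planted copies. Shares were computed per library and compared by exact two-sided permutation tests, adjusted by Benjamini-Hochberg. No test was fitted to counts of single sequences, since a sequence with 1 read allows none. Sequences named were chosen by the rule in the report. The rule for members, the lists and the tests were chosen with earlier results of these data known. Alternatives were thinned libraries, other partner lengths and read minimums, other counting units, left-out libraries and a replicate block.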

Additional observations from a re-analysis of the deposited data

Results flagged for a closer look

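Of 34 contrasts of members with sequences of more reads, 2 ran in opposite directions in every immature and every mature library. Among sequences without uridine at position 1, members of 31 nt had adenine at position 10 more often than sequences with more reads by 6.45 percentage points in immature testis and less often in mature testis, at -2.04 percentage points. At 32 nt the differences were 12.1 and -2.29 percentage points. The difference between the groups was not tested.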

How the results depend on the processing

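Of 105 recomputed differences between mature and immature members 99 kept their direction. Their exact tests cannot go below 0.1, so the 0.05 threshold says nothing about their stability. The 6 that changed direction were all of uridine at position 1, whose difference was -0.00325 percentage points (mature minus immature): 0.722 in thinned libraries, 0.0847 for sequences with 1 read in a library whatever the others hold, 1.47 without members at 1 substitution at position 1 or 4, and 0.240, 0.255 and 0.313 with a library left out. Over all 6 left-out libraries that difference ran from -0.505 to 0.313, and without near copies it was -1.48. All 51 recomputed differences of members from sequences with more reads, or of shared starts from shared ends, kept their direction, and 21 kept p under 0.05. The exact tests of members against sequences with more reads cannot go below 0.0625 with 5 libraries, so each lost its call when any library was left out, by the test's construction. The differences then ran from -6.95 to -5.48 percentage points for 29 to 32 nt, from -5.49 to -5.36 for uridine at position 1, from -1.02 to -0.477 for adenine at position 10, from -6.36 to -5.08 for the same without uridine at position 1, and from 15.3 to 17.9 for shared starts minus shared ends. Leaving out 1 library moved the mature minus immature differences to 29.7 to 31.3 percentage points for 29 to 32 nt, 16.6 to 18.6 for shared starts and -9.17 to -6.55 for adenine at position 10 without uridine at position 1.

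As a paired analysis, the replicate block gave the same differences of means, for example 30.4 percentage points for 29 to 32 nt and 17.7 for shared starts, with exact p-values that cannot go below 0.25. The numbers gave no clear sign of pairing: deviations of the member profiles (length, first base and base 10) correlated at 0.48, 0.232 and -0.383 between libraries of the same number. Between libraries of different numbers the correlations ran from -0.560 to 0.429. The value for replicate 1 lay above this range and those for replicates 2 and 3 within it. The match of members to a genome was not run. Depth limits which sequences count as read once, since a count of 0 leaves room for 3 reads.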
